A study of Mus musculus with 2 samples.

Results

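The genes described here are 8 transcription factors that are enriched in liver and are not nuclear receptors, Foxa1, Foxa2, Foxa3, Cebpa, Onecut1, Onecut2, Prox1 and Gata4, chosen by name for their role in hepatocytes and all found among the 35275 genes measured. RNA sequencing was applied to 2 livers of C57BL/6 mice aged 10 months, 1 labelled wild type and 1 labelled LTsc1KO (TSC1-/-), in which Tsc1 is deleted in the liver. Hamartin, its product, helps to hold back the growth kinase mTORC1, and the series describes liver cancer that arises in this model without inflammation. The series' text speaks of tumour tissue while both labels say liver, and the promoter that drives the deletion, the sex of the animals and whether a nodule was taken could not be taken from the sources used here. Values are FPKM (reads per length of transcript and depth of library). As each genotype has 1 library, no p-value can be given and replicates cannot be compared, so every difference below is between these 2 libraries and may be one between animals.

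Hepatocyte identity is held by a network of transcription factors that bind together at the control regions of liver genes and also at each other's promoters. FOXA proteins are pioneer factors of the forkhead family that can bind closed chromatin, C/EBP alpha is a leucine zipper protein that drives metabolic genes and restrains division, and ONECUT proteins carry a cut domain beside a homeodomain. PROX1 is a homeodomain protein of hepatocytes and lymphatic endothelium that often acts as a corepressor, and GATA4 is a zinc finger protein of early liver, sinusoidal endothelium and hepatocytes.

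The libraries held 27919645 reads (labelled wild type) and 29351163 reads (labelled LTsc1KO), as recovered from the deposited values. Tsc1 had an FPKM of 4.90 and 4.79, so the targeted gene does not check the labels, and each library is named by its label. All 11 hepatocyte markers measured were expressed, Alb (albumin) at 14400 and 5530 and Ttr (transthyretin) at 2830 and 5660. The 10 skeletal muscle genes examined summed to an FPKM of 3740 in the wild-type-labelled library and 3.07 in the other, and Tnnt3, Mb and Myl1 were listed at 0 in the latter. Their part in the values below was not tested. Equal totals taken without them and without the 10 most abundant genes of each library would multiply the LTsc1KO-labelled values by 0.936. Among the 12395 genes called expressed (a minimum FPKM of 1 in either library), the median log2 ratio, as log2(FPKM + 1) of the LTsc1KO-labelled library minus that of the other, was 0.70. Ratios are therefore also given after setting to 0 the median ratio of genes that reached an FPKM of 1 in each library. Genes are counted as at least 2-fold higher or lower by this log2(FPKM + 1) ratio, which understates the change of low genes, whereas the folds with intervals are ratios of FPKM. Intervals are 95% exact intervals on reads, for counting error alone. Of the 11 hepatocyte markers 1 was at least 2-fold higher in the LTsc1KO-labelled library and 3 were lower, with a median log2 ratio of -0.28. Of all expressed genes 35.6% were higher and 6.15% lower. With the median ratio set to 0, 1 marker was higher and 5 were lower (all expressed genes, 15.6% and 12.7%), with a median of -0.99.

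On the deposited scale Foxa1 and Foxa3 had the log2 ratios farthest from 0 among the 8 factors, in opposite directions, and for this reason the 250 bases before the transcription starts of the FOXA genes are shown. Once the median ratio was set to 0, Onecut2 (-1.44) lay farther from 0 than Foxa1 (0.85). Sequences are those of RefSeq on GRCm38.p6, which listed a promoter for 6 of the 8 genes, all but Onecut2 and Gata4. Capitals mark matches on either strand to the FOXA motif TGTTTAC, the ONECUT motif ATCAATA, the CCAAT box, the GC box GGGCGG and the TATA box TATAAA, none of which overlap here.
Foxa1, chr12:57546112-57546361, minus strand: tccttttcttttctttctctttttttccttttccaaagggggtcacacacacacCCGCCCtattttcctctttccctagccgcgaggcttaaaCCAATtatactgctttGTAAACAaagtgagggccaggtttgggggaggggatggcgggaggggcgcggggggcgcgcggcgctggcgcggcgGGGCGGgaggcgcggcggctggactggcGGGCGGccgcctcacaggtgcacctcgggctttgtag
Foxa2, outermost of 3 starts, chr2:148046970-148047219, minus strand: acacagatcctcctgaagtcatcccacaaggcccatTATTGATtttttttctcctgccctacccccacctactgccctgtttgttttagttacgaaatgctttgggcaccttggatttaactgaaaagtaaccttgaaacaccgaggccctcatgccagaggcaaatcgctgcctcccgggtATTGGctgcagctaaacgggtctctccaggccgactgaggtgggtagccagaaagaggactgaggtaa
Foxa3, chr7:19023540-19023789, minus strand: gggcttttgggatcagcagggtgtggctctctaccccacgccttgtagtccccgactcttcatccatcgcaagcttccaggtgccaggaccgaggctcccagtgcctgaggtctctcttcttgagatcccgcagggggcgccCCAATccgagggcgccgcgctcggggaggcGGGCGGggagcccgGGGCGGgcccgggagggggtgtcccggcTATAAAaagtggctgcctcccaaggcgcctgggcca
The FOXA letters stood in the Foxa1 window at position -141 from the RefSeq start, and such letters occur in 3.17% of all 32851 promoter windows of this length. That start, at 57546111, is downstream of the outer end of the gene as annotated in GENCODE M21 (57540628 to 57546916). The Foxa1 window therefore lies inside the annotated gene. The ONECUT letters stood in the Foxa2 window at position -214. These letters or ATCGATT, the second ONECUT motif searched, occur in 2.24% of all windows. The TATA letters stood at position -36 of Foxa3, a match found in 12.4% of windows, while CCAAT (33.8%) and the GC box (32.7%) are common. Over the 9 windows of the 6 listed genes, 1 held the FOXA letters, 1 the ONECUT letters, and none the C/EBP letters TTGCGCAA (0.164% of all windows) or the GATA letters AGATAAG (2.74%). The TATA letters stood in 4 of the 9, so they are not particular to Foxa3. The others were windows of Cebpa (-30), Prox1 (-34) and an inner start of Foxa2 (-208). CCAAT stood in 3 and the GC box in 7.

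Foxa1 (ENSMUSG00000035451; chromosome 12, 57540628 to 57546916, minus strand, GRCm38 in GENCODE M21) was the factor with the highest ratio. Its FPKM was 3.17 (141 reads) for the wild-type-labelled library and 10.7 (502 reads) in the LTsc1KO-labelled library. The level was 3.39-fold higher (interval 2.80 to 4.11), a log2 ratio of 1.49, and 0.85 with the median ratio set to 0, which is under 2-fold on the log2(FPKM + 1) scale, while the ratio of the FPKM themselves is then 2.06. Foxa3 (chromosome 7, 19013284 to 19023538, minus strand), the form whose transcript is most abundant of the 3 in adult mouse liver, was at 40.5 (2234 reads) and 18.0 (1042 reads). It was 2.25-fold lower (2.09 to 2.43), with a log2 ratio of -1.13, or -1.80 with the median ratio set to 0. Foxa2 (chromosome 2, 148042877 to 148046969, minus strand), known for its part in bile acid and lipid metabolism, lay between these at 21.6 (880 reads) and 31.9 (1366 reads). Its ratio of 1.48 (1.36 to 1.61) turned into 0.899 with the median ratio set to 0, so its direction depends on the scaling.

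The make-up of the FOXA family differed between the libraries. The 3 genes summed to an FPKM of 65.3 in the wild-type-labelled library and 60.6 in the other, a ratio of 0.928 on the deposited scale, 0.565 with the median ratio set to 0 and 0.506 under upper quartile scaling. Foxa3 made up 62.1% of that sum in the wild-type-labelled library and 29.7% in the LTsc1KO-labelled library. The share of Foxa2 went the other way, from 33.1% to 52.6%, and that of Foxa1 from 4.86% to 17.7%. These shares are taken within a library and do not depend on how the libraries are scaled, but they do depend on the transcript lengths used. As shares of recovered reads, Foxa3 made up 68.6% and 35.8%, Foxa2 27.0% and 46.9%, and Foxa1 4.33% and 17.3%. The ratio of Foxa1 to Foxa3 was 0.0782 and 0.597, a 7.63-fold difference (interval 6.22 to 9.40), and that of Foxa2 to Foxa3 was 0.533 and 1.77, a 3.33-fold difference (2.97 to 3.73). The 3 genes share a conserved forkhead region, and the counting of reads that match several genes is not described in the sources used here. In bulk liver, fewer cells of a type and less RNA per cell cannot be told apart.

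**Figure D1:**
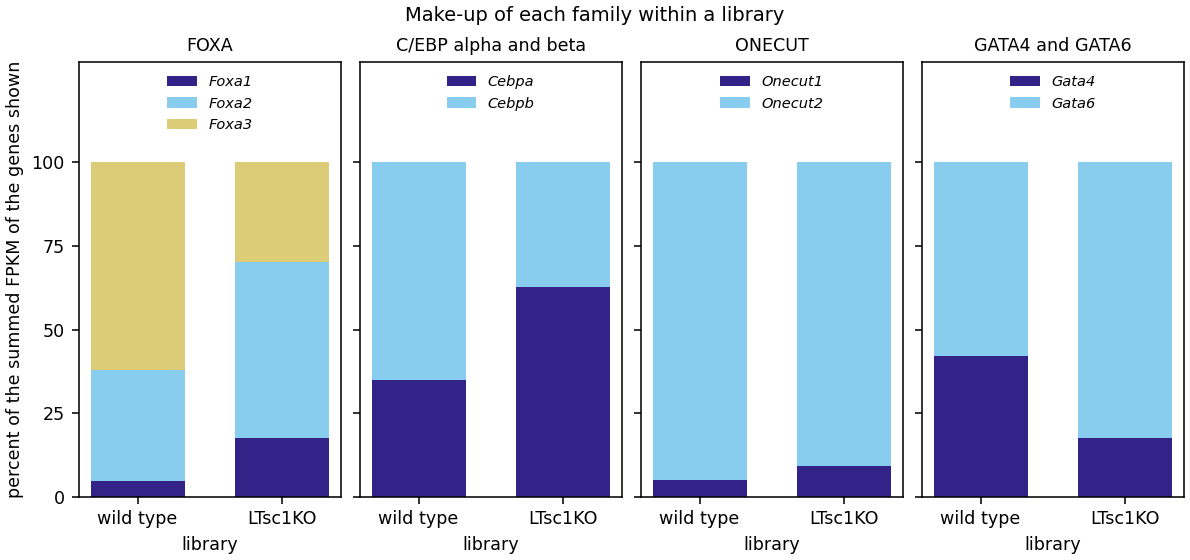
Stacked bars give each gene's share, in percent, of the summed FPKM of the genes shown, in the wild-type-labelled library and the LTsc1KO-labelled library (1 library each, no error bars). Foxa3 takes 62.1% of the FOXA sum on the left and 29.7% on the right, and Cebpa 34.9% and 62.6% of the sum of Cebpa and Cebpb.

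Cholangiocytes also express FOXA and ONECUT genes. Of the 11 cholangiocyte markers, 9 were expressed, of which 5 were at least 2-fold higher in the LTsc1KO-labelled library and none lower, beside 35.6% and 6.15% of all expressed genes. Of the 8 still expressed once the median ratio was set to 0, 2 were higher and none lower (all expressed genes, 15.6% and 12.7%). Their summed FPKM was 52.2 and 644, of which Spp1 (osteopontin) made up 36.9 and 575. The defining keratin Krt19 was at 0.328 and 2.46 and Epcam at 0.316 and 2.34. Their part in the FOXA values was not tested.

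The annotated neighbours of FOXA genes did not follow them closely. Sympk, a polyadenylation factor gene that starts 839 bases from Foxa3 on the other strand, was at 28.1 and 29.4 (ratio 1.05, interval 0.976 to 1.13), where Foxa3 was 2.25-fold lower. The long noncoding RNA 9030622O22Rik, which starts 6766 bases from Foxa2 on the same strand, was at 12.2 and 10.9 (ratio 0.892, interval 0.746 to 1.07).

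Cebpa (chromosome 7, 35119293 to 35121928, plus strand), which encodes C/EBP alpha, was the most abundant of the 8 factors and nearly equal in both libraries. Its FPKM was 96.0 (7058 reads) and 99.2 (7667 reads), a ratio of 1.03 (interval 1.00 to 1.07). Its log2 ratio of 0.05 became -0.66 with the median ratio set to 0. Cebpb, its relative of the acute-phase and regenerative response, was at 179 (7522 reads) and 59.4 (2620 reads), 3.02-fold lower (2.89 to 3.16). Cebpa therefore made up 34.9% of the sum of the pair in the wild-type-labelled library and 62.6% in the other, and the ratio of Cebpa to Cebpb was 0.536 and 1.67, a 3.12-fold difference (2.95 to 3.30). Cebpb is also expressed in macrophages. Of 9 Kupffer cell markers 7 were expressed, 1 of them at least 2-fold higher and 1 lower (all expressed genes, 35.6% and 6.15%). With the median ratio set to 0, none was higher and 2 were lower (all expressed genes, 15.6% and 12.7%). The 9 markers summed to an FPKM of 54.3 and 72.8, and their part in the Cebpb value was not tested.

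The other leucine zipper genes of the C/EBP family differed among themselves. Ddit3 (CHOP), a stress-induced inhibitory member, was at 10.4 and 80.7 (7.76-fold higher, interval 6.78 to 8.92). Cebpd was at 16.5 and 10.6 and Cebpg at 18.1 and 22.4. Cebpe, a granulocyte factor, was at 3.07 (106 reads) and 0.0275 (1 read), a ratio of 0.00897 (interval 0.000225 to 0.0511). Of the 6 genes of the family, all expressed, 1 was at least 2-fold higher and 2 were lower (all expressed genes, 35.6% and 6.15%). The median log2 ratio of the family was -0.27, beside 0.70 for all expressed genes. After the median ratio was set to 0, 1 was higher and 3 were lower (all expressed genes, 15.6% and 12.7%). Trib1, which with the ubiquitin ligase Cop1 promotes the degradation of C/EBP alpha protein, was at 19.1 and 11.4, and Cop1 at 5.71 and 10.2. Protein was not measured.

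**Figure D2:**
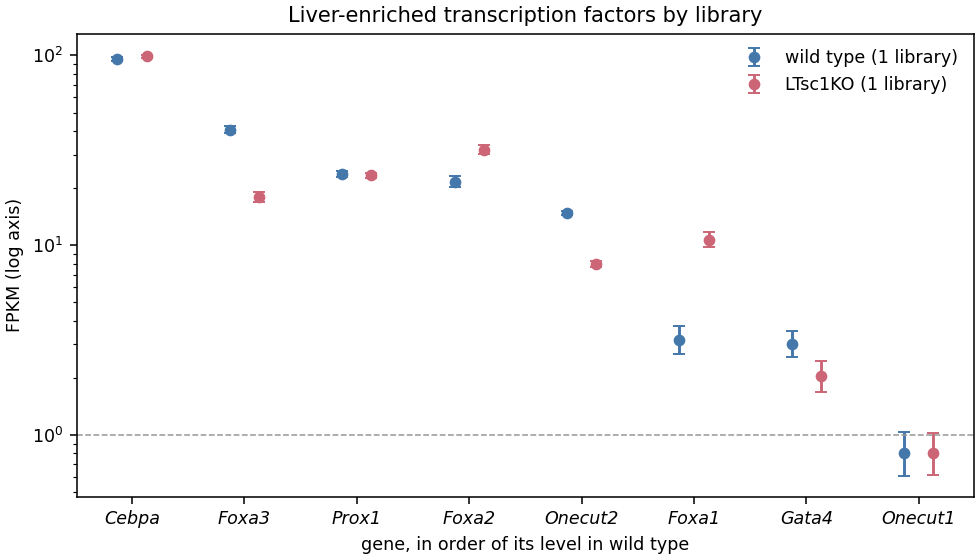
Points give the FPKM of each factor (log axis) in the wild-type-labelled library and in the LTsc1KO-labelled library, with 95% Poisson intervals on reads, and the dashed line marks an FPKM of 1. Cebpa is highest in both at 96.0 and 99.2, Foxa1 lies at 3.17 and 10.7, and Onecut1 lies at 0.804 in both.

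Among the ONECUT genes, Onecut2 was much the more abundant. Onecut1 (chromosome 9, 74861921 to 74891781, plus strand), which encodes HNF6, was at an FPKM of 0.804 in both libraries, from 58 and 61 reads, and so did not count as expressed. Its ratio of 1.00 has an interval of 0.687 to 1.46, and differences within that interval were not detectable at this depth. Onecut2 (chromosome 18, 64340020 to 64400987, plus strand), a close relative that shares functions with HNF6 in liver development, was at 14.8 (5539 reads) and 7.95 (3123 reads). It was 1.86-fold lower (1.78 to 1.95), a log2 ratio of -0.82 that passed 2-fold with the median ratio set to 0 (-1.44). The ratio of Onecut2 to Onecut1 was 18.4 and 9.88, a 1.87-fold difference (1.28 to 2.73), resting on the few reads of Onecut1. Onecut3 was listed at 0 in both libraries. Of the related cut-domain genes, Cux2, a factor of female mouse liver, was at 24.3 and 2.40, 10.1-fold lower (8.52 to 12.1), and Cux1 was at 4.07 and 8.53. Of the 7 cut-domain genes 3 were expressed. By the log2(FPKM + 1) ratio none was at least 2-fold higher and 1 was lower (all expressed genes, 35.6% and 6.15%). That log2 ratio was 0.91 for Cux1, whose ratio of FPKM was 2.10. Once the median ratio was set to 0, none was higher and 2 were lower (all expressed genes, 15.6% and 12.7%).

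Prox1 (chromosome 1, 190118035 to 190170714, minus strand) was nearly equal in both libraries, at 23.7 (3333 reads) and 23.3 (3445 reads). This is a ratio of 0.983 (interval 0.937 to 1.03) and a log2 ratio of -0.02, and -0.70 with the median ratio set to 0. Its antisense RNA differed by much more. Prox1os, which overlaps Prox1 on the opposite strand and starts 418 bases from it, was at 13.2 (306 reads) and 2.18 (53 reads), 6.07-fold lower (4.52 to 8.29). A further antisense gene there, Gm28172, was at 2.62 (37 reads) and 0.337 (5 reads), 7.78-fold lower (3.05 to 25.4). Whether reads were counted by strand is not given, and without strand the reads of Prox1 and of its antisense partners cannot be told apart where they overlap.

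Lymphatic endothelium is another known site of Prox1. Of 6 lymphatic markers 2 were expressed, and both were at least 2-fold higher in the LTsc1KO-labelled library, as were 35.6% of all expressed genes. Flt4, the receptor of the lymphatic growth factor VEGF-C, was at 0.255 (35 reads) and 40.7 (5883 reads). Lyve1, also on the list of sinusoidal endothelial markers, was at 0.192 and 1.54. With the median ratio set to 0, Flt4 alone was still expressed and was higher, as were 15.6% of all genes then expressed. The others, Pdpn, Ccl21a, Mmrn1 and Sema3d, lay under an FPKM of 1 in both libraries, with Pdpn at 0.305 and 0.132. The summed level of the list was 1.17 and 42.5, nearly all of it Flt4 in the latter. Their part in the level of Prox1 was not tested.

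Gata4 (chromosome 14, 63198922 to 63271692, minus strand) was low in both libraries, at 3.02 (156 reads) and 2.04 (111 reads). It was 1.48-fold lower (interval 1.15 to 1.90), with a log2 ratio of -0.40, or -0.84 with the median ratio set to 0. Gata6, the other GATA factor of liver and gut, was at 4.17 (372 reads) and 9.48 (889 reads), 2.27-fold higher (2.01 to 2.57), but at a log2 ratio of 0.39 with the median ratio set to 0. Gata4 made up 42.0% of the sum of the pair in the wild-type-labelled library and 17.7% in the LTsc1KO-labelled library, a 3.36-fold lower ratio of Gata4 to Gata6 (2.54 to 4.45). Of the FOG proteins that bind GATA factors, Zfpm1 was at 25.1 and 28.5 and Zfpm2 at 0.0144 and 0.0274. Gata6 was the 1 gene at least 2-fold higher among the 3 expressed of 8 GATA and FOG genes, and none was lower. Of all expressed genes 35.6% were higher and 6.15% lower. None of the 3 was higher or lower by 2-fold once the median ratio was set to 0 (all expressed genes, 15.6% and 12.7%).

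Sinusoidal endothelial cells depend on GATA4, and their markers went in both directions. Of 15 such markers 6 were expressed, with 3 at least 2-fold higher and none lower in the LTsc1KO-labelled library. Of all expressed genes 35.6% were higher and 6.15% lower. The 15 markers summed to an FPKM of 26.2 and 51.7. Stab2 was at 13.2 and 28.3 and Stab1 at 3.48 and 10.4. Pecam1, a general endothelial marker, was at 1.98 and 1.23 (ratio 0.618, interval 0.468 to 0.813). Among those under an FPKM of 1, Kdr was at 0.701 and 0.374, Cdh5 at 0.863 and 0.462, and Rspo3 at 0.628 and 0.185. With the median ratio set to 0, none of the 4 markers still expressed passed 2-fold (all expressed genes, 15.6% higher and 12.7% lower). Stellate cells also express Gata4. Of 10 stellate cell and fibroblast markers 6 were expressed, 3 of them at least 2-fold higher and 1 lower (all expressed genes, 35.6% and 6.15%). The 10 summed to an FPKM of 35.2 and 34.8. Of the 5 still expressed once the median ratio was set to 0, 1 was higher and 1 lower (all expressed genes, 15.6% and 12.7%). The part of either cell type in the Gata4 value was not tested.

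Of the 8 factors 7 were expressed. Foxa1 alone was at least 2-fold higher, as were 35.6% of all expressed genes, and Foxa3 alone was at least 2-fold lower, as were 6.15%. With the median ratio set to 0, none was at least 2-fold higher on the log2(FPKM + 1) scale, though the ratio of FPKM of Foxa1 was 2.06, and Foxa3 and Onecut2 were lower, beside 15.6% and 12.7% of the 11851 genes then expressed. The median log2 ratio of the 7 was -0.02, beside 0.70 for all expressed genes, and -0.70 beside 0.07 with the median ratio set to 0. Foxa1 was the only one of the 7 whose log2 ratio lay above the median of expressed genes.

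**Figure D3:**
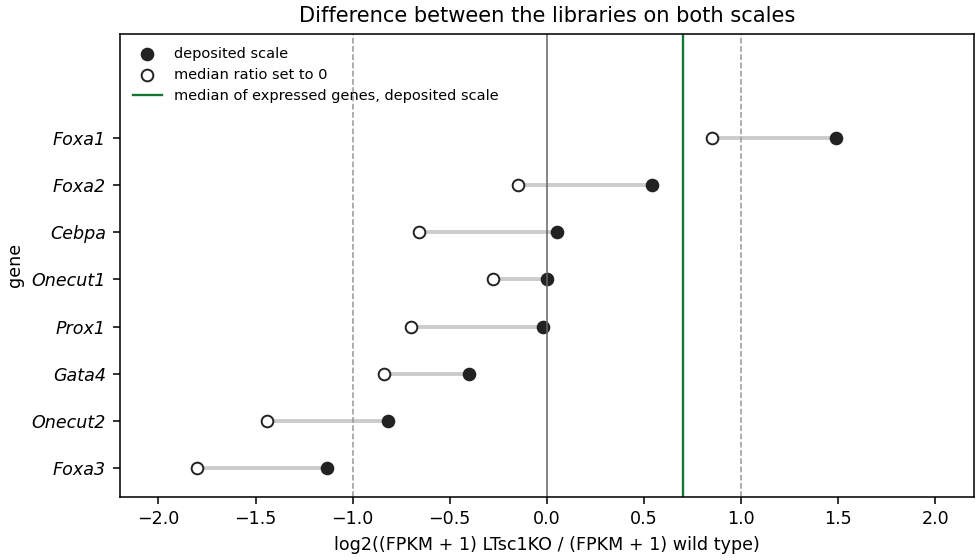
Filled points give the log2 ratio of each factor on the deposited scale and open points the same with the median ratio set to 0, with dashed lines at 2-fold and a green line at the median of expressed genes (0.70). Foxa1 runs from 1.49 to 0.85, Foxa3 from -1.13 to -1.80, and every other factor lies left of the green line.

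The order of the 8 levels differed between the libraries in the middle ranks. In the wild-type-labelled library it ran Cebpa, Foxa3, Prox1, Foxa2, Onecut2, Foxa1, Gata4 and Onecut1, where the counting intervals of Prox1 and Foxa2 overlapped, as did those of Foxa1 and Gata4. In the LTsc1KO-labelled library it ran Cebpa, Foxa2, Prox1, Foxa3, Foxa1, Onecut2, Gata4 and Onecut1, with no overlap between neighbours. Measured by the percent of expressed genes that lay below it in the same library, Foxa3 stood at 85.2 and 60.6 and Onecut2 at 68.9 and 40.3. Foxa1 stood at 35.4 and 47.9, whereas Foxa2 (75.7 and 73.9) and Cebpa (92.8 and 90.8) kept close to their place. Prox1 stood at 77.3 and 67.0 and Gata4 at 34.4 and 14.6. Onecut1, not itself counted as expressed, stood at 12.5 and 3.43. FPKM depend on the transcript length used, and with the longest annotated transcript in its place Gata4 (1.64) would lie above Foxa1 (1.58) in the wild-type-labelled library, while Foxa3 (17.4) would lie above Prox1 (14.8) and Onecut2 (6.55) above Foxa1 (5.36) in the other.

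On the deposited scale the wider set of hepatocyte factors was also divided. Of 32 others, all expressed, 4 were at least 2-fold higher in the LTsc1KO-labelled library and 5 lower (all expressed genes, 35.6% and 6.15%). The median log2 ratio of the 32 was -0.04, beside 0.70 for all expressed genes. With the median ratio set to 0, 1 was higher and 14 were lower (all expressed genes, 15.6% and 12.7%). Hnf4a, the nuclear receptor at the centre of the network, was at 259 and 325 (ratio 1.25, interval 1.23 to 1.28), but at a log2 ratio of -0.39 with the median ratio set to 0. Relative to Hnf4a within each library, Foxa1 was 2.70-fold higher (interval 2.23 to 3.28) and Foxa2 1.18-fold higher (1.08 to 1.29) in the LTsc1KO-labelled library. By the same measure Foxa3 was 2.83-fold lower (2.62 to 3.05), Onecut2 2.34-fold lower (2.23 to 2.45) and Cebpa 1.21-fold lower (1.17 to 1.26). Prox1 was 1.28-fold lower relative to Hnf4a (1.21 to 1.34) and Gata4 1.85-fold lower (1.44 to 2.39), while the interval for Onecut1 (0.547 to 1.16) took in equality.

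Among those that were higher were Klf10 (3.80 and 15.2), Nr5a2 (4.53 and 15.1) and Stat5a (5.25 and 12.1). The 5 that were lower were Cux2, Tbx3, Dbp, Nfia and Usf2. Tbx3, a T-box factor of liver development, was at 12.7 and 1.65, 7.70-fold lower (interval 6.50 to 9.18). Dbp, a clock output gene, was at 42.3 and 14.9 and was the nearest of the 32 to Foxa3, at a distance of 0.26 in log2(FPKM + 1) over the 2 libraries. Over 2 libraries such a distance is a description of level only. The nearest to Cebpa was Mlxipl (0.42), to Prox1 Srebf2 (0.39), to Onecut2 Tcf7l2 (0.47) and to Foxa2 Srebf2 (0.71), while Onecut1 and Gata4 had none within 1 (Tbx3 at 2.98 and 1.78).

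**Figure D4:**
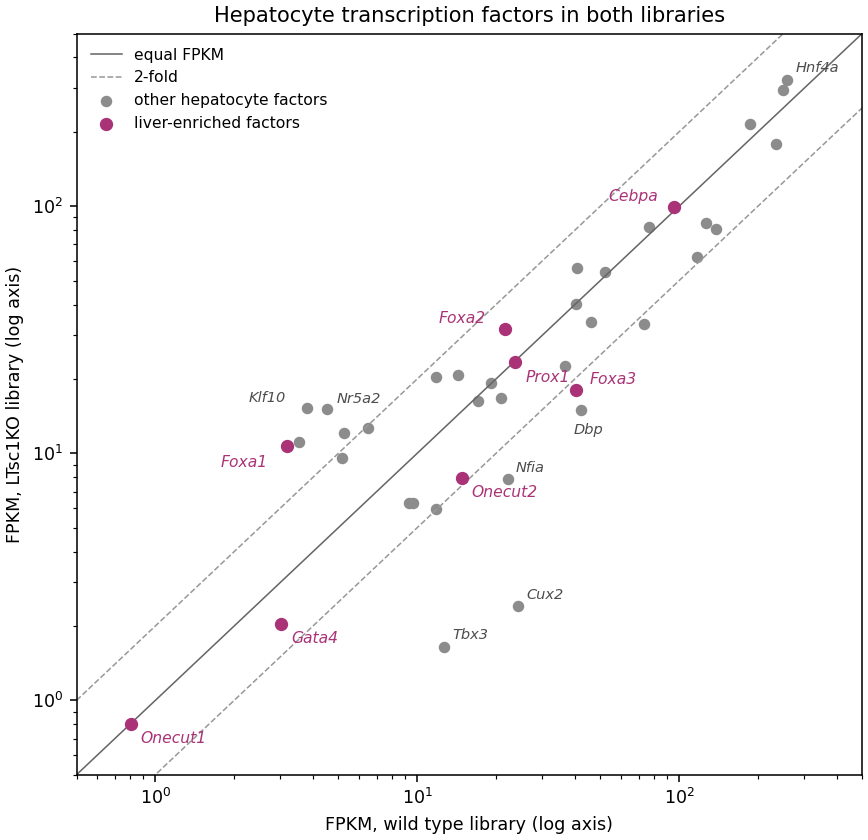
Each point is a gene, with its FPKM in the wild-type-labelled library on the horizontal log axis and in the LTsc1KO-labelled library on the vertical log axis. Foxa1 lies above the upper 2-fold line, Foxa3 lies beside Dbp below the lower one, and Cux2 and Tbx3 lie farthest below.

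On the deposited scale, genes that C/EBP alpha and FOXA factors are known to control went in both directions. Of 9 liver genes under C/EBP alpha, 2 stood at least 2-fold higher and 3 lower, beside 35.6% and 6.15% of all expressed genes. None was higher and 4 were lower once the median ratio was set to 0, beside 15.6% and 12.7% of all expressed genes. The median log2 ratio of these 9 genes was then -0.99, from -0.28 on the deposited scale. Hamp, the iron hormone hepcidin, was at 3270 and 371 and Pck1, an enzyme of gluconeogenesis, at 1370 and 460. In contrast G6pc, glucose 6-phosphatase, was at 31.2 and 101 and Ugt1a1, which conjugates bilirubin, at 2.72 and 8.13. Of 11 genes with FOXA-bound control regions, 2 were higher and 2 lower (all expressed genes, 35.6% and 6.15%), with a median of 0.33. After the median ratio was set to 0 these counts were 1 and 4 (all expressed genes, 15.6% and 12.7%), with a median of -0.25. Among the 11, Igfbp1, a binding protein of insulin-like growth factors, was at 65.9 and 408. Alb, Pck1, G6pc and Tat belong to both of these lists.

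Of 9 genes linked to ONECUT factors, 3 stood at least 2-fold higher, a share close to the 35.6% of all expressed genes. None was lower, beside 6.15%. With the median ratio set to 0, 2 were higher and 1 lower (all expressed genes, 15.6% and 12.7%). The median was then 0.22, and 0.87 on the deposited scale. Foxa2, which was not past 2-fold, is itself among the 9. Tgfbr2, a receptor of TGF-beta that ONECUT factors keep low in the developing liver, was at 1.48 and 6.72 (4.54-fold higher, interval 3.95 to 5.23). Cyp7a1, the rate-limiting enzyme of bile acid synthesis and a gene that PROX1 represses, was at 89.2 and 67.2. Hdac3, a deacetylase that PROX1 binds, was at 16.3 and 34.6. Of the 10 expressed genes of the corepressor and partner list, 2 were past 2-fold upwards and none downwards (median 0.58). All expressed genes had 35.6% and 6.15%. With the median ratio set to 0, none of the 10 was higher and 1 was lower (all expressed genes, 15.6% and 12.7%).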

How the data were processed

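RNA was taken from flash-frozen livers with an RNeasy Plus Mini kit, per the labels' protocols. The authors deposited FPKM values, 1 column per library. CASAVA 1.7 and Bowtie 0.12.2 are named, without roles, in the submitters' processing notes, as is the mouse build mm8. The counting tool, annotation, strand and handling of multiply matching reads were not given in the sources used here. Of 35275 Ensembl IDs, 34490 matched a GENCODE M21 symbol, and coordinates are those of GRCm38.

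Reads were recovered by finding the library totals and, near each gene's mean annotated transcript length, the length at which both values are whole. Whole meant within 0.0001 read, with a wider tolerance in proportion to the reads for genes with many reads, Cebpa among them. The recovery worked for 98.9% of expressed genes and all 8 factors. Foxa1, Foxa3, Cebpa, Onecut2 and Prox1 needed a length other than the annotated mean, so their reads are known up to a common whole factor, and the length nearest to the annotation was taken. No count model was used.

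The pseudocount was 1, the minimum FPKM 1 and the limit 2-fold. Ratio intervals are exact binomial (Clopper-Pearson), level intervals Poisson, and those of ratios of 2 genes exact conditional. Named genes were the 8 factors, expressed genes of their families, the 4 largest ratios of each other list, Hnf4a, Nr5a2, Alb and Ttr, the nearest hepatocyte factor, and genes that overlap a factor or start within 10000 bases of it. Krt19, Epcam, Pdpn, Stab1, Pecam1, Kdr, Cdh5, Rspo3, Cop1, Trib1, Cyp7a1, Stat5a, Usf2 and further genes named beside a count were chosen after their values were seen. Some genes that the rule names are not reported here. Of the listed genes 1, Tf, matched no symbol. Members and lists were chosen with earlier results of these data known. The recovery, ratios and intervals were tested on simulated data, where most but not all genes that needed another length were given the simulated reads, so the intervals of such genes may be too narrow or too wide. Computation used scipy 1.17.1, numpy 2.4.6 and pandas 2.3.3 under Python 3.11.15, and figures matplotlib 3.10.9.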

Additional observations from a re-analysis of the deposited data

How the results depend on the processing

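The values of the 8 factors depend mainly on how the libraries are scaled. Log2 ratios with the median ratio set to 0 were 0.85 for Foxa1, -0.15 for Foxa2, -1.80 for Foxa3, -0.66 for Cebpa, -1.44 for Onecut2, -0.70 for Prox1 and -0.84 for Gata4. Under upper quartile scaling they were 0.72, -0.30, -1.94, -0.82, -1.57, -0.85 and -0.93 in the same order. With equal totals Foxa2 was at 0.72, Foxa3 at -0.96, Cebpa at 0.22, Onecut2 at -0.66 and Prox1 at 0.15. With equal totals after leaving out muscle genes and the 10 most abundant genes of each library, Cebpa was at -0.05, Onecut2 at -0.91 and Prox1 at -0.12. A pseudocount of 5 gave 0.95 for Foxa1, -0.99 for Foxa3 and -0.61 for Onecut2, and a pseudocount of 0.1 gave -0.89 for Onecut2. Foxa1 stayed higher and Foxa3, Onecut2 and Gata4 lower under each of these settings. Foxa2, Cebpa and Prox1 changed sign with the scaling, and the cause was not tested. The count of factors at least 2-fold higher, 1 on the deposited scale, was 0 with a pseudocount of 5, a 4-fold limit, the median ratio set to 0 or upper quartile scaling. The count at least 2-fold lower, also 1, was 2 with the median ratio set to 0 or upper quartile scaling, and 0 with a pseudocount of 5, a 4-fold limit or equal totals. The median of lymphatic markers, 3.07 over the 2 expressed, was -0.05 over all 6 without the filter, since the other 4 lie near 0. Shares within a family moved when taken from recovered reads. Cebpa then made up 48.4% and 74.5% of its pair with Cebpb, and Gata4 29.5% and 11.1% of its pair with Gata6. The lengths of the longest transcripts, the box motifs of the promoters and the scaling of the FOXA sum were chosen after seeing the data. Depth limits the values of Onecut1, Gata4 and Foxa1 in the wild-type-labelled library, each from few reads (58, 156 and 141). No paired analysis was possible because each genotype has 1 library, and none could be left out.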

Other observations

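Regulators of biliary and fetal liver cells were measured beside the hepatocyte factors. Of 12, 6 were expressed, 4 of them at least 2-fold higher in the LTsc1KO-labelled library and none lower (all expressed genes, 35.6% and 6.15%). The median log2 ratio of the 6 was 1.35, beside 0.70 for all expressed genes. Once the median ratio was set to 0, 2 of these regulators were higher and none lower (all expressed genes, 15.6% and 12.7%). The medians were then 0.82 and 0.07. Ehf, an ETS factor of epithelia, was at an FPKM of 0.398 (18 reads) and 15.4 (732 reads), 38.7-fold higher (interval 24.3 to 65.6). Elf3, another epithelial ETS factor, was at 2.09 and 14.2, and Sox9, a factor of bile duct and progenitor cells, at 3.64 and 11.2. Sox4 was at 0.0896 and 1.68. The fetal regulators Sall4, Hmga2 and Lin28b lay under 1 in both libraries.

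Forkhead genes outside the FOXA group included larger ratios than any FOXA gene. Of 22 examined 15 were expressed, 5 of them at least 2-fold higher in the LTsc1KO-labelled library and 2 lower, beside 35.6% and 6.15% of all expressed genes (median log2 ratio 0.62, beside 0.70). With the median ratio set to 0 these counts were 2 and 3, beside 15.6% and 12.7% of all expressed genes. Foxm1, a driver of mitotic genes, was at 0.197 (9 reads) and 7.52 (362 reads). Foxc1, a factor of mesenchymal and endothelial development, was at 0.0362 (4 reads) and 5.46 (633 reads). Foxp4 was at 11.8 and 40.1, while Foxq1 was at 8.34 and 2.79 and Foxp2 at 3.44 and 1.06. Foxo1, the insulin-responsive activator of gluconeogenic genes, was at 9.61 and 6.28, and Foxo3 at 12.4 and 22.0.

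Genes were also grouped by the letters in their promoters, 250 bases before to 50 after the start. Among 9539 expressed genes with a promoter the median log2 ratio was 0.70. It was 0.54 for the 313 with TGTTTAC, 0.67 for the 30 with TTGCGCAA, 0.73 for the 226 with AGATAAG and 0.45 for the 182 with ATCGATT or ATCAATA. Of those 182 genes 27 (14.8%) were at least 2-fold lower, beside 5.61 percent of all 9539. Of the 889 genes with TATAAA, 12.0% were. The same share was 7.67% with TGTTTAC, 6.67% with TTGCGCAA and 7.52% with AGATAAG. It was 5.8% with CCAAT, 3.6% with the GC box and 3.51% with the E-box CACGTG.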
